A study of Homo sapiens with 12 samples.

Results

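Transcripts of nucleolin and 7 other nucleolar or nucleolin-linked proteins were followed in 3 human cancer cell lines that had received oligonucleotides of the kind that form G-quadruplexes (G4), guanine-rich folds of 4 strands. The genes were NCL, NPM1, FBL, NOP58, NOP2, NOLC1, DDX21 and PRMT5, and the members were all probe sets whose annotation names 1 of these genes and no other. The rule gave 16 probe sets of 8 genes, out of 54613 probe sets tested, of which 41091 name 1 of 19775 genes. NPM1, NOLC1 and PRMT5 had 3 probe sets each, NCL and DDX21 had 2 each, and FBL, NOP58 and NOP2 had 1 each. Probe sets of 1 gene read the same transcripts and are not replicates.

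The lines are labelled as prostate (PC-3), breast (HBC4) and stomach (MKN74) cancer lines. Each line had 4 treatments, all reverse transfections with Lipofectamine RNAiMAX. They were the reagent alone, the RNA (uuaccc)4, the RNA (uuaggg)4 and AS1411, which is DNA. The G4-forming (uuaggg)4 is the telomeric RNA repeat, whereas (uuaccc)4 has cytosines in place of the guanines. AS1411 is a guanine-rich DNA aptamer that binds nucleolin, and no DNA control oligonucleotide is among the treatments, so it was compared with the reagent alone. A well held 300000 cells and about 100 pmol of oligonucleotide, and the cells grew in 3D, in plates of low adhesion, for 72 h until harvest. RNA of each line and treatment was read on 1 Affymetrix array, 12 in all, so a treatment had 3 arrays, 1 per line. No culture was repeated within a line, and the number of arrays limits the precision. The lines serve as the replicates in the treatment comparisons, and a line's 4 arrays, 1 per treatment, in the line comparisons.

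The nucleolus is the nuclear body in which RNA polymerase I transcribes ribosomal RNA and in which that RNA is modified, cut and packed into ribosomal subunits. Nucleolin (NCL) and nucleophosmin (NPM1) are its abundant RNA-binding and chaperone proteins. Fibrillarin (FBL) and NOP58 belong to the box C/D small nucleolar ribonucleoproteins (snoRNPs), in which FBL methylates ribosomal RNA. NOP2 is a ribosomal RNA methyltransferase, NOLC1 (Nopp140) is a phosphoprotein chaperone of snoRNPs, and DDX21 is an RNA helicase that also unwinds G4 RNA. PRMT5 is an arginine methyltransferase of the cytoplasm and nucleus and a reported partner of nucleolin in cells treated with AS1411. Nucleolin binds G4 structures, and many tumour cells show it on their surface.

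The deposited log2 values are centred on each probe set's median over the 12 arrays, so a value is a difference from that median and not a level. Genes cannot be ranked by abundance, and no probe set can be called present or absent. Over all probe sets, no 2 arrays of a line correlated below 0.856, and no 2 arrays from different lines correlated above -0.171. The prostate markers HOXB13 and STEAP1 were far higher in PC-3 than in the other lines, as were AZGP1 and ESR1 (1 of 9 probe sets) of the breast list in HBC4. Other genes of those lists did not follow: the 7 probe sets of KLK2 and KLK3 had PC-3 means between -0.27 and 0.02, and MUCL1 of the breast list was lowest in HBC4 (-0.88) and highest in MKN74 (1.04). No marker of the gastric list stood out in MKN74, where the highest line mean was 0.48 (VIL1), and TFF1, TFF2 and TFF3 were highest in PC-3. Markers of other cell types had median differences between G4 and control arrays of 0.01 (fibroblast, 22 probe sets), 0.02 (leukocyte, 7) and -0.09 (endothelial, 9). In the same arrays all 24 probe sets of 14 interferon-stimulated genes fell with the G4 oligonucleotides (median log2 difference -2.30). Of 38 probe sets of 14 proliferation genes 7 rose and none fell (median 0.28). Over all probe sets 1.57% passed that comparison, 0.474% as higher, and the median was 0.02. The shifts of the interferon-stimulated and proliferation lists run alongside every comparison of G4 oligonucleotides with controls below. In AS1411 against (uuaggg)4 the medians of the interferon-stimulated and proliferation lists were -0.35 and 0.05. In (uuaccc)4 against the reagent alone they were -0.05 and 0.10. The part of these shifts in the results below was not tested. The difference between 3′ and 5′ control probe sets, a sign of RNA quality, lay between -0.03 and 0.04 for GAPDH and between -0.37 and 0.19 for ACTB.

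Nucleolin, the aptamer's own target, did not pass the threshold in any treatment comparison. For the probe set 200610_s_at, the values in PC-3 were -0.06 with the reagent alone, -0.18 with (uuaccc)4, -0.12 with (uuaggg)4 and -0.12 with AS1411. In HBC4 they were -0.14, -0.02, 0.02 and 0.11 in the same order, and in MKN74 they were 0.03, 0.12, 0.12 and 0.16. The AS1411 array was the highest of the 4 in HBC4 and MKN74 and lay among the others in PC-3. The mean log2 difference of G4 oligonucleotides from controls was 0.07 ± 0.07 (SD, n = 3 lines; 95% interval -0.07 to 0.21; adjusted p = 0.629). The interval for AS1411 against the reagent alone, around a difference of 0.11, ran from -0.09 to 0.31 (adjusted p = 0.674). The second probe set, 241892_at, spread more widely: its values were 0.30, -0.14, -0.33 and 0.01 in PC-3. HBC4 gave -0.01, -0.05, 0.04 and 0.29, and MKN74 gave -0.14, 0.24, -0.09 and 0.48. Its AS1411 array was the highest in HBC4 and MKN74, and in PC-3 the reagent-alone array was the highest.

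**Figure D1:**
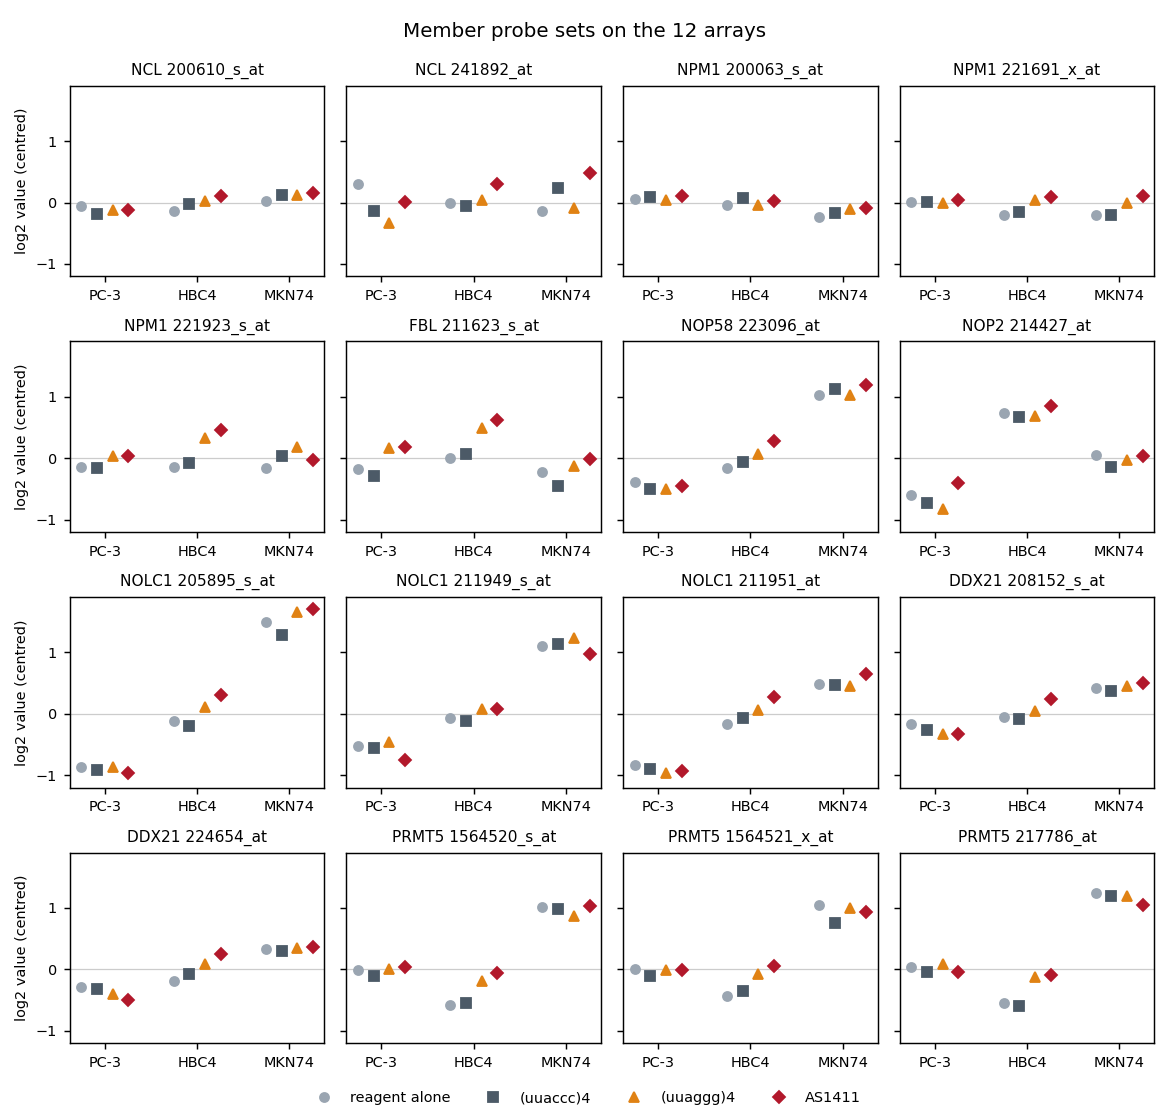
Each panel plots 1 member probe set, with the cell line on the x axis and the deposited log2 value, centred on the probe set's median, on the y axis; each point is 1 array and its shape gives the treatment. FBL 211623_s_at has both G4 arrays above both control arrays in all 3 lines, an order that 21.7% to 25.1% of all probe sets had in a single line. The share of all probe sets with it in all 3 lines was not counted. NOLC1, NOP58 and PRMT5 differ far more between lines than between treatments.

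With both G4 oligonucleotides set against the controls (the reagent alone and (uuaccc)4), 1 of the 16 members rose, FBL. Over all probe sets 1.57% passed this comparison (859, of which 259 were higher and 600 lower). Of the members, 4 had an unadjusted p under 0.05, beside 16.2% of all. All 16 members had a positive mean difference, beside 55.8% of all probe sets, and their median was 0.09 beside 0.02 for all; this also held with quantile normalization and with centred array medians. In the 3 lines taken singly, 6 of the 16 were positive in each line and 0 were negative in each line, beside 19.5% and 14.5% of all probe sets.

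Fibrillarin, the methyltransferase of box C/D snoRNPs, gave -0.18 with the reagent alone, -0.30 with (uuaccc)4, 0.17 with (uuaggg)4 and 0.19 with AS1411 in PC-3. In HBC4 the values were 0.01, 0.07, 0.49 and 0.62, and in MKN74 they were -0.22, -0.46, -0.13 and -0.01. Both G4 arrays lay above both control arrays in each of the 3 lines, with no overlap within a line. Taken 1 line at a time, 25% (PC-3), 25.1% (HBC4) and 21.7% (MKN74) of all probe sets had that order. The share with it in all 3 lines was not counted. The log2 difference was 0.40 ± 0.12 (SD, n = 3 lines; 95% interval 0.25 to 0.55; adjusted p = 0.0173), a fold of 1.32. The call was lost when PC-3, HBC4 or MKN74 was left out (adjusted p of 0.178, 0.200 and 0.0601), and its difference then stayed between 0.34 and 0.47. It was also lost without any 1 of 4 single arrays: (uuaccc)4 in PC-3 (adjusted p = 0.0573), (uuaggg)4 in PC-3 (0.0598), (uuaggg)4 in HBC4 (0.0622) or AS1411 in HBC4 (0.0510). With the cell line left out of the model the adjusted p was 1.00 to 3 digits.

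FBL and 2 of the other genes carry an E-box, CACGTG, a palindromic motif bound by MYC with MAX among other factors, in the promoters of the RefSeq table (GRCh38.p14, from 250 bases before a start to 50 after it). The table held promoters of 6 of the 8 member genes, 8 promoters in all, and NOP58 and NOLC1 were not matched. CACGTG lay in 3 of the 8 (FBL, NOP2 and the second start of DDX21), beside 7.26% of the 35116 promoters of the same length in the table. A G4 motif, 4 runs of at least 3 G with loops of 1 to 7 bases, sought on both strands, was found in the FBL promoter alone of the 8, on the gene's strand, beside 25% of all promoters. FBL is shown because it is the member that passed the test, and DDX21 because its motif lies on the other side of the start. Each stretch runs 5′ to 3′ on the gene's strand, from 100 bases before the start to the end of the first 30 bases transcribed, FBL at chr19:39846350-39846479 (minus strand) and DDX21 at chr10:68956547-68956676 (plus strand); capitals mark CACGTG in both and, in FBL, also the G4 motif as the longer run of capitals.
FBL: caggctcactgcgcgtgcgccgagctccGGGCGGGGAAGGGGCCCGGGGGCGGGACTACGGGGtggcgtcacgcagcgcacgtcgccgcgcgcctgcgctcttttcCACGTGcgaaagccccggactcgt
DDX21: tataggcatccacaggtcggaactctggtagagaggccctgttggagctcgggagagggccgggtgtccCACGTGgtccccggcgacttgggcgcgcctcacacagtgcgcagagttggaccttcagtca
In FBL the E-box begins 6 bases after the start, in NOP2 35 bases after it, and in DDX21 31 bases before it. A match is a run of letters and not a measured site, and DDX21 and NOP2 did not pass the treatment test that FBL passed. Any part of MYC, the E-box or the G4 motif in the FBL difference was not tested. Of the 21 probe sets of MYC, MYCN, MAX, MNT and MXD1, which include activators and antagonists, 0 passed limma's test in the treatment comparison, beside 1.57% of all. Their median difference was 0.01. The 3 with the smallest p were of MYCN (0.23, unadjusted p = 0.0373, the single one under 0.05), MXD1 (-0.21) and MYC (0.15), and in HBC4 the difference of MYC 202431_s_at was 0.41 (adjusted p = 0.0863).

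Nucleophosmin, a histone and ribosome chaperone, differed between its probe sets. For 221923_s_at the values were -0.14, -0.17, 0.03 and 0.03 in PC-3 (reagent alone, (uuaccc)4, (uuaggg)4, AS1411). HBC4 gave -0.14, -0.07, 0.32 and 0.46, and MKN74 gave -0.16, 0.04, 0.17 and -0.03. The G4 arrays lay above the controls in PC-3 and HBC4, as for 25% and 25.1% of all probe sets, and overlapped them in MKN74. Its log2 difference from controls was 0.27 ± 0.20 (SD, n = 3 lines; adjusted p = 0.130), that of 221691_x_at was 0.17 ± 0.14 (adjusted p = 0.242), and that of 200063_s_at was 0.03 ± 0.07 (adjusted p = 0.848). The suffixes _x_at and _s_at mark probes that may also match related transcripts, and NPM1 has many processed pseudogenes, so the probe sets of this gene are uncertain.

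None of the other members passed the threshold against the controls. NOP58 read -0.39, -0.51, -0.50 and -0.45 in PC-3, -0.16, -0.06, 0.06 and 0.27 in HBC4, and 1.03, 1.12, 1.02 and 1.19 in MKN74. NOP2 read -0.60, -0.73, -0.82 and -0.40 in PC-3, 0.73, 0.67, 0.69 and 0.85 in HBC4, and 0.06, -0.14, -0.04 and 0.04 in MKN74. The G4 arrays of NOP58 lay above its controls in HBC4 alone, as for 25.1% of all probe sets there. Those of NOP2 overlapped its controls in all 3 lines. NOLC1 205895_s_at had a difference of 0.21 ± 0.21 (SD, n = 3 lines; adjusted p = 0.224), while the NOLC1 probe sets 211951_at and 211949_s_at gave 0.09 and 0.03. NOP58 gave 0.10 ± 0.16 and NOP2 0.05 ± 0.01, the latter with an interval of -0.09 to 0.20. The DDX21 probe sets gave 0.06 and 0.07, and the PRMT5 probe sets 0.13, 0.16 and 0.16, with SDs between 0.19 and 0.30 over the lines. The SDs of DDX21 and PRMT5 exceeded their means.

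**Figure D2:**
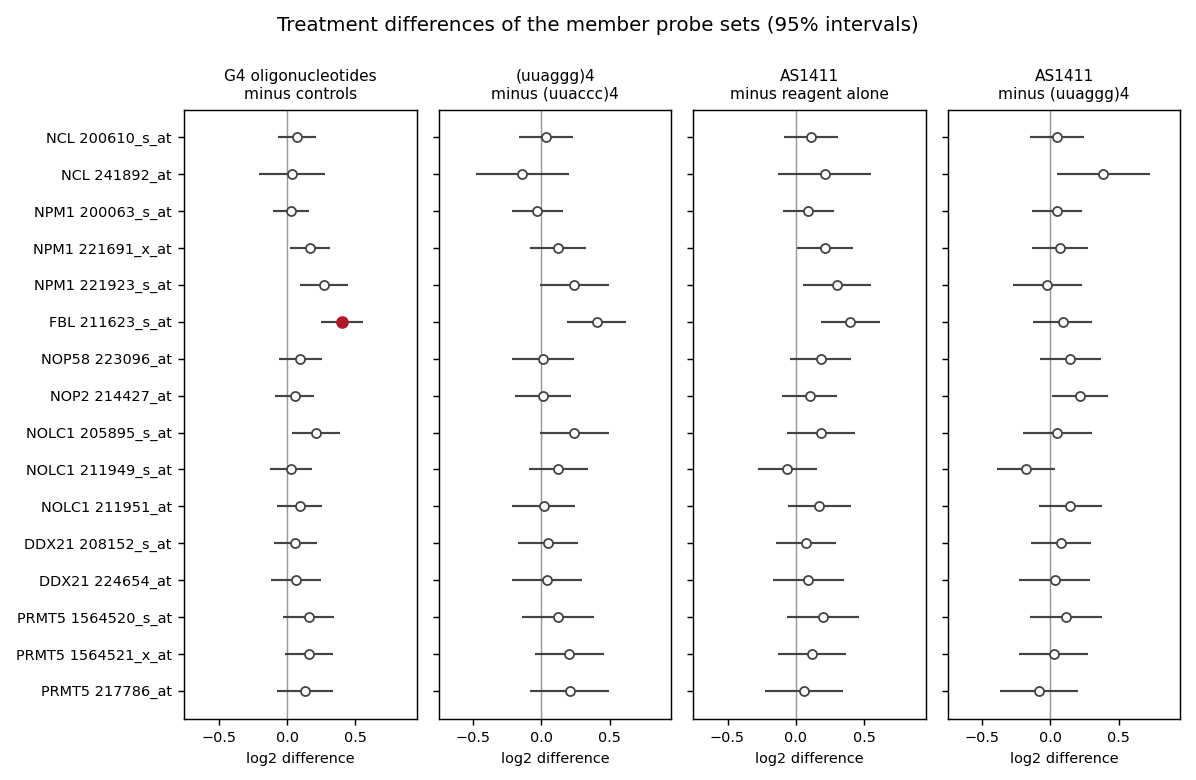
Each row is a member probe set and each panel a comparison, with the log2 difference on the x axis as a point and its 95% interval from the fit as a line; filled red marks an adjusted p under 0.05. FBL is the filled point in the first panel, at 0.40, and no probe set is filled in the other panels.

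In HBC4 nearly all members were higher with the G4 oligonucleotides than with the controls. Both G4 arrays lay above both control arrays for 14 of 16 probe sets and below for 0, beside 25.1% and 19.9% of all probe sets. In PC-3 they lay above for 3 and below for 3 (25% and 21.8% of all), and in MKN74 above for 6 and below for 1 (21.7% and 20.2% of all). The median member difference was 0.28 in HBC4, -0.0014 in PC-3 and 0.07 in MKN74, beside 0.02, 0.02 and 0.01 over all probe sets.

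The test within a line treats the 2 arrays of a class as replicates, although they received different oligonucleotides. In HBC4 it called FBL (0.52, adjusted p = 0.0484) and PRMT5 217786_at (0.47, adjusted p = 0.0482), 2 of 16 members, beside 1.55% of all probe sets, and 10 members had an unadjusted p under 0.05, beside 15.1% of all. PRMT5 217786_at gave -0.55 with the reagent alone, -0.59 with (uuaccc)4, -0.12 with (uuaggg)4 and -0.09 with AS1411 in HBC4. Its controls lay apart from its G4 arrays there, while in PC-3 the values were 0.04, -0.05, 0.10 and -0.04 and in MKN74 1.24, 1.19, 1.19 and 1.05. NPM1 221923_s_at (0.49, adjusted p = 0.0554) and PRMT5 1564520_s_at (0.45, adjusted p = 0.0576) lay just outside the threshold. No member passed in PC-3, beside 1.21% of all probe sets, or in MKN74, beside 0.831%; 1 and 3 members there had an unadjusted p under 0.05, beside 13.2% and 12.1% of all. The 4 HBC4 arrays of 1564520_s_at read -0.58, -0.55, -0.18 and -0.05, and those of 1564521_x_at -0.43, -0.35, -0.08 and 0.06, so all 3 PRMT5 probe sets had the G4 arrays above the controls there. Both HBC4 calls were lost with centred array medians (adjusted p of 0.0517 for FBL and 0.0541 for PRMT5), and without the AS1411 array of HBC4 (0.280 and 0.241). Leaving out single arrays, of any line, ended the PRMT5 call in 12 of 12 cases and the FBL call in 10 of 12.

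The 2 helicase probe sets of DDX21 ran opposite ways in 2 lines. For 224654_at the values were -0.19, -0.08, 0.08 and 0.26 in HBC4 and -0.29, -0.32, -0.40 and -0.50 in PC-3. The G4 arrays were the upper ones in HBC4 and the lower ones in PC-3, and 208152_s_at had the same order of classes. In the test of whether the G4 difference varied between lines, 0 of 16 members passed in limma's moderated F test, beside 0.487% of all probe sets, and 3 members had an unadjusted p under 0.05, beside 12% of all. The smallest adjusted p was that of PRMT5 217786_at (0.198), followed by PRMT5 1564520_s_at (0.279) and DDX21 224654_at (0.337). The members' stronger movement in HBC4 is therefore a description, not a tested difference.

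**Figure D3:**
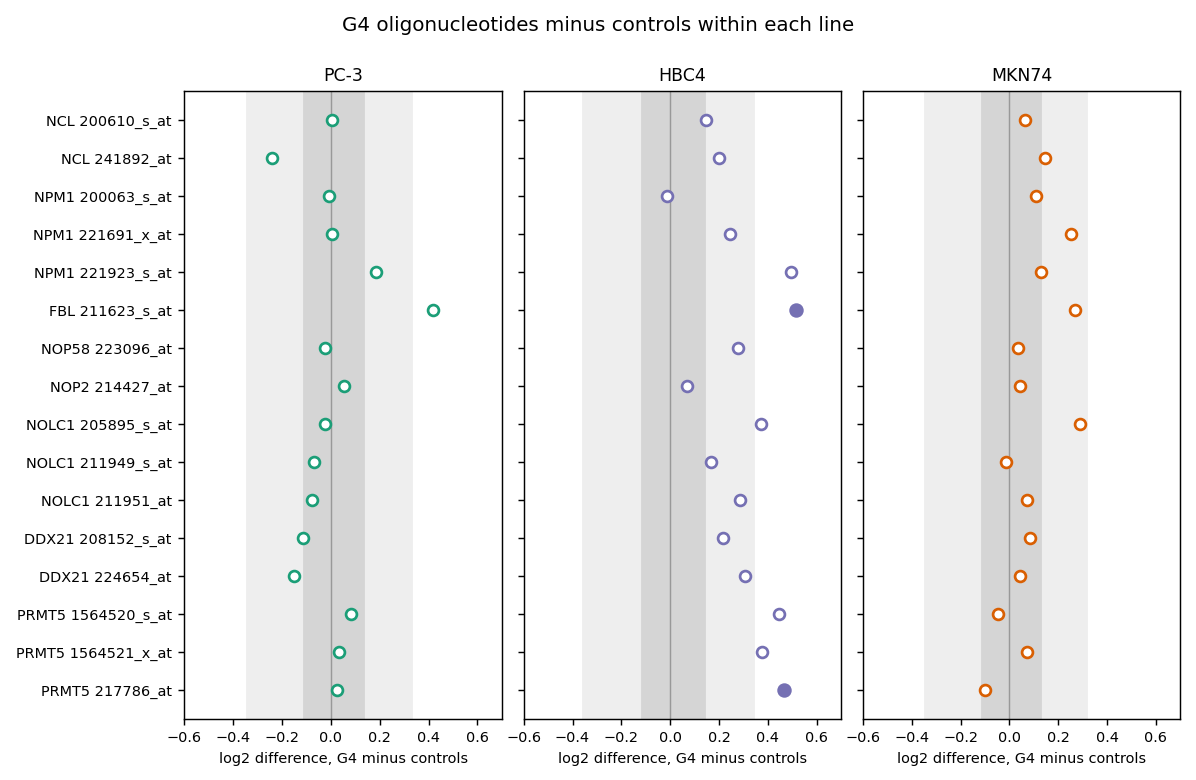
Each row is a member probe set and each panel a cell line; the x axis is the log2 difference of the 2 G4 arrays from the 2 control arrays, filled points passed the test within the line, and the dark and light bands hold the middle 50% and 90% of all probe sets. In HBC4 the points lie to the right, with a median of 0.28, and in PC-3 they lie on both sides of 0.

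Some other gene lists had the same order of array classes in HBC4, among them the other nucleolar lists described below. The gastric marker list had it too (0.04 and -0.03 in the controls, 0.09 and 0.14 in the G4 arrays), and the breast marker list had the opposite one. Of all single probe sets in HBC4, 25.1% had both G4 arrays above both controls and 19.9% had them below. These are shares of single probe sets and not of list means. The mean over the 16 member probe sets was -0.13, -0.10, 0.10 and 0.24 in HBC4 (reagent alone, (uuaccc)4, (uuaggg)4, AS1411), and that of 16 probe sets of other snoRNP proteins was -0.06, -0.05, 0.10 and 0.24. In the same arrays the proliferation list gave -0.07, 0.10, 0.33 and 0.43, and the interferon-stimulated list gave 1.29, 1.46, -1.40 and -1.88. These 4 sets had the control arrays on one side of the G4 arrays, the interferon-stimulated list in the opposite direction to the rest. The MYC list in HBC4 did not (-0.15, -0.22, -0.10 and -0.21). In PC-3 the members did not either (-0.23, -0.32, -0.28 and -0.25). The proliferation list (-0.95, -1.05, -0.81 and -0.86) and the interferon-stimulated list (1.80, 1.53, -0.67 and -0.96) did so there. In MKN74 the members gave 0.45, 0.44, 0.51 and 0.57, with both control arrays below. The difference between 3′ and 5′ ACTB control probe sets in the HBC4 arrays was -0.20, 0.19, -0.37 and -0.23, and its part in the result was not tested.

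AS1411 and the RNA G4 were then compared for the same members. For (uuaggg)4 against (uuaccc)4, 0 of 16 members passed in limma's fit, beside 0.165% of all probe sets, and 1 had an unadjusted p under 0.05, beside 9.26% of all. For AS1411 against the reagent alone, 0 of 16 passed, beside 0.35% of all, and 3 had an unadjusted p under 0.05, beside 11.8% of all. FBL had nearly equal differences in both, 0.41 (interval 0.19 to 0.62, adjusted p = 0.251) for the RNA and 0.40 (0.18 to 0.61, adjusted p = 0.140) for AS1411. The 2 comparisons share no array.

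Set directly against each other, AS1411 and (uuaggg)4 differed in 0 of 16 members by limma's test at the threshold, beside 0% of all probe sets (2633 of all and 2 members had an unadjusted p under 0.05). AS1411 gave the higher value in all 3 lines for 9 of 16 members and the lower in all 3 for 0, beside 12.8% and 13.3% of all probe sets; with either other scaling the first count was 10. AS1411 gave the highest of the 4 arrays for 15 of 16 members in HBC4, 11 in MKN74 and 6 in PC-3, beside 29.2%, 27.7% and 28.2% of all probe sets. In PC-3 the reagent alone was the highest for more of them, 7 of 16, beside 23.8% of all. NCL 241892_at was higher with AS1411 than with (uuaggg)4 in every line, by 0.34 (PC-3), 0.25 (HBC4) and 0.57 (MKN74). Its mean difference was 0.39 ± 0.16 (SD, n = 3 lines; interval 0.05 to 0.73; adjusted p = 1.00), and that of the other NCL probe set was 0.05 (interval -0.15 to 0.24). NOP2, the ribosomal RNA methyltransferase, had a difference of 0.22 ± 0.18 (interval 0.01 to 0.42) that was positive in 3 of 3 lines. NOLC1 211949_s_at had the lowest difference, -0.18 (interval -0.39 to 0.04). For FBL the interval ran from -0.13 to 0.30, and a missed threshold does not show that the oligonucleotides act alike.

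The RNA control and the reagent alone were compared as well. For (uuaccc)4 against the reagent alone 0 of 16 members passed in limma's fit, beside 0% of all probe sets (1703 of all and 0 members had an unadjusted p under 0.05). Of the 16, 7 were positive, beside 48.5% of all, and their median was -0.02, beside -0.0042 over all. In all 3 lines 4 members were lower and 1 was higher with (uuaccc)4, beside 12.8% and 10.8% of all probe sets. In PC-3, 1 of the 16 was higher with (uuaccc)4, against 10 in HBC4 and 7 in MKN74. The matching shares of all probe sets in single lines were not computed.

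For NOLC1, NOP58, NOP2, DDX21 and PRMT5 the largest difference between lines far exceeded the mean G4 difference. This did not hold for FBL, with a G4 difference of 0.40 and line differences of 0.33 (HBC4 against PC-3), -0.17 (MKN74 against PC-3) and -0.50 (MKN74 against HBC4). Nor did it hold for NPM1 221923_s_at, with 0.27 beside 0.20, 0.07 and -0.13 in the same order. In the F test over lines 12 of 16 probe sets of 7 genes passed, beside 61.2% of all probe sets, so the members' share is near the background. By pairs of lines, 10 members differed between HBC4 and PC-3 (46.8% of all), 12 between MKN74 and PC-3 (52.7% of all), and 11 between MKN74 and HBC4 (43.1% of all). Of the 12 between MKN74 and PC-3, 11 were higher in MKN74, as were 16384 of the 28775 over all probe sets. These line tests took a line's 4 arrays, each of another treatment, as its replicates. Their p-values measure the spread between those arrays, with treatment in the model, and not a spread between repeated cultures of a line.

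NOLC1, the snoRNP chaperone, had the widest range. The 4 arrays of 205895_s_at, in the order reagent alone, (uuaccc)4, (uuaggg)4 and AS1411, read -0.87, -0.91, -0.87 and -0.96 in PC-3. They read -0.12, -0.19, 0.12 and 0.31 in HBC4, and 1.49, 1.28, 1.65 and 1.70 in MKN74. The 3 lines did not overlap, and MKN74 exceeded PC-3 by 2.43 (interval 2.21 to 2.65, adjusted p = 6.67e-10), a fold of 5.38. The other NOLC1 probe sets gave 1.68 and 1.42 for the same pair of lines and kept the same order.

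NOP58, the core snoRNP protein beside FBL, had line means of -0.46 ± 0.05 (PC-3), 0.03 ± 0.19 (HBC4) and 1.09 ± 0.08 (MKN74), with SDs over 4 arrays of different treatments. DDX21 had the same order, with 208152_s_at at -0.27 ± 0.07, 0.04 ± 0.15 and 0.43 ± 0.06, and each pair of lines differed (adjusted p of 0.0113 for HBC4 against PC-3 and 0.00250 for MKN74 against HBC4). PRMT5 was highest in MKN74 and lowest in HBC4: 217786_at had means of 0.01 ± 0.07 (PC-3), -0.34 ± 0.27 (HBC4) and 1.17 ± 0.08 (MKN74). The PRMT5 difference between HBC4 and PC-3 was -0.35 (adjusted p = 0.0232), and for 1564521_x_at it was -0.17 and did not pass (adjusted p = 0.190).

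NOP2 and FBL had another order, with HBC4 highest. NOP2 had means of -0.64 ± 0.18 (PC-3), 0.74 ± 0.08 (HBC4) and -0.02 ± 0.09 (MKN74), and all 3 pairs of lines differed. FBL had means of -0.03 ± 0.25, 0.30 ± 0.30 and -0.20 ± 0.19, and HBC4 differed from PC-3 (0.33, adjusted p = 0.00690) and from MKN74, while PC-3 and MKN74 did not pass (adjusted p = 0.110). The box C/D partners FBL and NOP58 thus had different orders of lines.

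NCL and NPM1 varied least between lines. NCL 200610_s_at had line means of -0.12 ± 0.05, -0.01 ± 0.10 and 0.11 ± 0.05, in the order used above, with a difference of 0.23 (adjusted p = 0.0288) between MKN74 and PC-3, and the F test over lines did not pass (adjusted p = 0.0683). NCL 241892_at gave 0.16 for that pair and did not pass. NPM1 200063_s_at ran the other way, at 0.07 ± 0.03, 0.01 ± 0.06 and -0.15 ± 0.07, with -0.22 (adjusted p = 0.0230) between MKN74 and PC-3, and the other NPM1 probe sets differed in no pair.

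**Figure D4:**
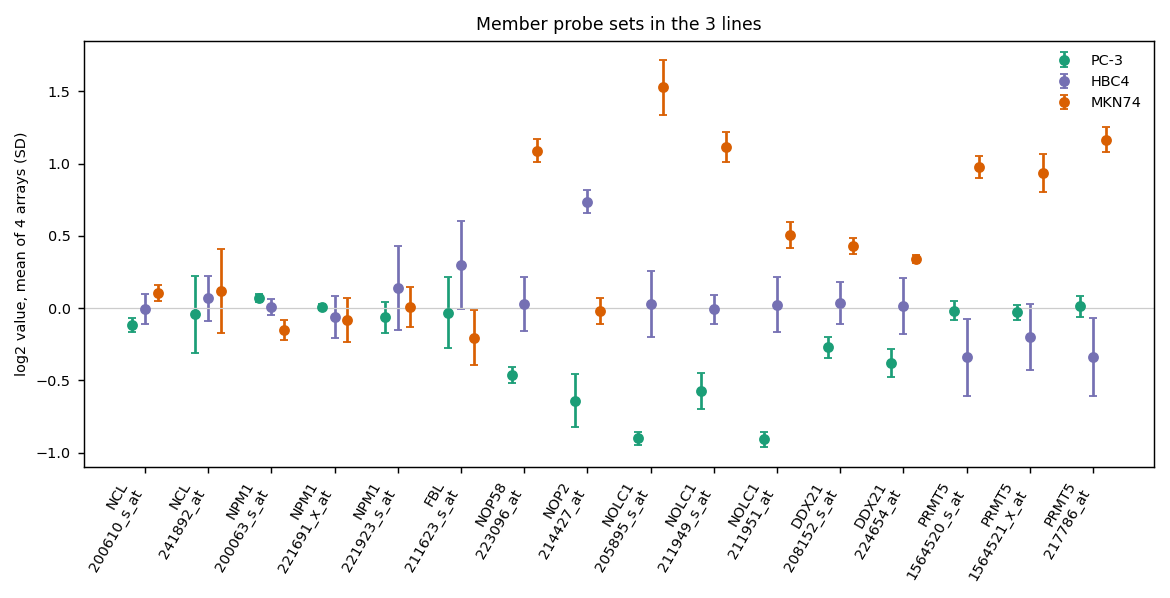
Each position on the x axis is a member probe set, and the y axis is the log2 value as the mean of a line's 4 arrays, 1 per treatment, with bars of 1 SD. NOLC1, NOP58, DDX21 and PRMT5 are highest in MKN74, NOP2 is highest in HBC4 at 0.74, and the lines lie close together for NCL and NPM1.

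Other proteins of the nucleolus and of the PRMT5 complex were taken from lists without the members. In the comparison of G4 oligonucleotides with controls, 0 probe sets passed in either direction for the snoRNP proteins (16 probe sets of 10 genes), RNA polymerase I and its factors (41 of 16), small subunit processing (82 of 38), large subunit processing (77 of 36), and the PRMT5 methylosome with other arginine methyltransferases (27 of 15). Over all probe sets 1.57% passed this comparison (0.474% as higher), so at that share lists of this size would hold few calls. The medians of these lists were 0.07, 0.03, 0.04, 0.06 and 0.09, beside 0.02 over all probe sets. Among other nucleolar proteins 1 of 37 probe sets rose, MKI67 212022_s_at (0.39, adjusted p = 0.0252), the perichromosomal proliferation antigen, which the proliferation list also holds.

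The members of those lists with the smallest p included RUVBL2, an ATPase of snoRNP assembly (0.27, adjusted p = 0.0824), POLR1E, a subunit of RNA polymerase I (0.26, adjusted p = 0.138), and IMP4 of the small subunit processome (0.23, adjusted p = 0.0911). TSR1 239042_at, second by p in small subunit processing, gave -0.28 (adjusted p = 0.103 in limma's fit) and was negative in all 3 lines. In large subunit processing the RNA helicase DDX24 gave -0.34 (adjusted p = 0.0537) and NSA2 gave 0.24 (adjusted p = 0.0650). PRMT1, the main asymmetric arginine methyltransferase, gave 0.32 (adjusted p = 0.0743). PRMT9 228536_at, second by p in the same list, gave -0.21 (adjusted p = 0.137 in limma's fit) and was negative in all 3 lines. In HBC4 alone 1 probe set of the PRMT list rose, PRMT1 206445_s_at (0.57, adjusted p = 0.0147), and no probe set of the 4 ribosome biogenesis lists passed, beside 1.55% of all. In PC-3 POLR1D 224857_s_at of RNA polymerase I rose (0.52, adjusted p = 0.0398) and SDAD1 224037_at of large subunit processing fell (-0.91, adjusted p = 0.00654), beside 1.21% of all. The HBC4 medians were 0.23 for snoRNP proteins, with 16 of 16 probe sets positive, 0.15 for small subunit processing with 70 of 82, 0.15 for large subunit processing with 57 of 77, and 0.08 for RNA polymerase I with 31 of 41, beside 0.02 and 53.8% positive over all probe sets. In PC-3 the same lists had medians of -0.02 (7 of 16 positive), -0.04 (36 of 82), -0.0041 (37 of 77) and -0.03 (20 of 41), beside 0.02 and 53.4% over all. In MKN74 they had 0.09 (10 of 16), 0.06 (53 of 82), 0.05 (45 of 77) and 0.09 (28 of 41), beside 0.01 and 52.7%.

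The genes most like NCL over the 12 arrays, by Pearson correlation with the mean of its probe sets after each line's mean was subtracted, were TMEM87A (0.93), PHLDA2 (0.93), CYCS (0.93), NKPD1 (0.92) and LOC101928516 (0.90). For FBL they were SLC25A5 (0.98), MYBL2 (0.98), CMTM4 (0.97), RPS3 (0.97) and RPS7 (0.97), of which RPS3 and RPS7 encode proteins of the small ribosomal subunit. Without that subtraction they were LOC101928516, CSF3R, CCDC120, TMEM87A and ST3GAL3 for NCL (0.92 to 0.88), and NRP2, COX4I1, OGFOD1, NAP1L1 and CA5A for FBL (0.97 to 0.93). These are the highest values among 19775 genes over arrays that share lines and treatments, and are a description. The mean of the NCL probe sets mainly follows 241892_at, which had the larger SDs within PC-3, HBC4 and MKN74. These were 0.27, 0.155 and 0.29, beside 0.05, 0.10 and 0.05 for 200610_s_at. Between members, NCL (the mean of its 2 probe sets, with the line means subtracted) correlated at 0.81 with NOP58 and at 0.27 with FBL. FBL correlated at 0.62 with NCL 200610_s_at and at 0.14 with 241892_at, at 0.80 with PRMT5 1564521_x_at and at 0.78 with NPM1 221923_s_at.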

How the data were processed

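Total RNA of 12 cultures was labelled as cRNA (100 ng) and hybridised to Affymetrix arrays, per the labels' protocols. The table deposited by the authors holds log2 values from RMA, per the submitters' processing notes (version not given). Every probe set's median in it is 0 (largest departure 5e-07), which shows a centring of each probe set that no source used here describes. Base 2 was assumed, since the largest value is 11.2.

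The 62 array controls were left out. Gene names came from the platform annotation; 41037 of 41091 probe sets that name 1 gene matched RefSeq genes by identifier. The 1801 that name several genes and 11721 unnamed ones stayed in the tests. Linear models (limma 3.58.1, lmFit with eBayes and no intensity trend, under R 4.3.3) were fitted on all 12 arrays, with treatment and cell line as terms and 6 residual degrees of freedom. A second model held the line and a G4 effect per line. The replicate number of a treatment stands for the same line, so the line is the block that pairs the samples. Adjusted p-values are Benjamini-Hochberg over 54613 probe sets, with a threshold of 0.05. SD is over the 3 lines, and intervals (95%) are those of the fit. The labels name no separate cultures within a line. P-values of the treatment comparisons measure how far treatment differences varied between these lines. Those of the line comparisons measure the spread of a line's arrays with treatment in the model, not a spread between repeated cultures.

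All 16 member probe sets are named. Genes of the other lists were named from the 3 smallest p-values per list in the G4 comparison, and the genes most like NCL and FBL by the 5 highest correlations. Which cell type markers to name was decided once their values were known. The members and lists were chosen with earlier results of these data known. The fitting code was tested on simulated data. Alternatives were 2 other scalings, 3 selections or averages of probe sets, the 50% of probe sets with the largest SD, only the arrays compared, no line term, and each line or array left out. No values were filtered for low signal.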

Additional observations from a re-analysis of the deposited data

Results flagged for a closer look

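Probe sets of 3 genes had both G4 arrays above both control arrays in 1 line and below them in another. The values are the G4 difference from controls (log2) in the first line minus that in the second. In HBC4 against PC-3 these were 0.46 for DDX21 224654_at (0.31 and -0.15), 0.33 for DDX21 208152_s_at (0.21 and -0.12) and 0.36 for NOLC1 211951_at (0.29 and -0.08). In MKN74 against PC-3 they were 0.20 for DDX21 224654_at (0.04 and -0.15) and 0.20 for DDX21 208152_s_at (0.08 and -0.12). In HBC4 against MKN74 the value was 0.56 for PRMT5 217786_at (0.47 and -0.10). These pairwise differences were not tested one by one. The F test over the 3 lines gave adjusted p-values in limma's fit of 0.337 and 0.521 for DDX21, 0.515 for NOLC1 and 0.198 for PRMT5, so none passed. Each line contributed 2 arrays of a class, and an order of 2 above 2 also held for 25.1% of all probe sets in HBC4 and, in the other direction, for 21.8% in PC-3. The 2 DDX21 probe sets read 1 transcript and are not independent.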

How the results depend on the processing

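Counts are of member probe sets past the threshold. For G4 oligonucleotides against controls the count of 1 (FBL) held with both other scalings and with every selection of probe sets, and it was 0 with no replicate block (the cell line left out of the model). Leaving out lines or arrays in turn gave 0 to 1. Within HBC4 the count of 2 became 4 with quantile normalization, 4 with the probe sets naming 1 gene, 3 with the 50% of probe sets with the largest SD and 0 with centred array medians, and leaving out arrays gave 0 to 1. The 4 other treatment comparisons, the tests within PC-3 and MKN74 and the test of the difference between lines gave 0 under all alternatives run. The F test over lines gave 11 to 13, and no called member changed direction under any of them. Between pairs of lines, calls of members were lost in 10, 13 and 4 of 251 repeats (HBC4 against PC-3, MKN74 against PC-3, MKN74 against HBC4). The 251 also count member probe sets that had no call to lose. Calls were gained in 0, 2 and 0 repeats in the same order.

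Over all probe sets, the 859 of the G4 comparison became 592 with quantile normalization, 0 without the line term and 80 without HBC4. The 90 of (uuaggg)4 against (uuaccc)4 became 30 with quantile normalization and 40 with only the arrays compared, and the 191 of AS1411 against the reagent alone became 115 and 45. Within HBC4 845 became 2131 with quantile normalization, and the 659 within PC-3 became 387. The cause of these shifts was not tested. The single-line tests and the counts of signs by scaling were added after the data had been seen. The centring leaves no signal over background, so a member near background cannot be told from one measured well.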
